A study of Ovis aries with 6 samples.

Results

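TIMP1 and TIMP2 encode tissue inhibitors of metalloproteinases, and their transcripts were followed in the somatic cells of sheep milk, a mixture of leukocytes and shed epithelium. The members were all rows of the deposited table that carry either symbol. These were 1 transcript of TIMP1 (NM_001009319.2) and 1 of TIMP2 (NM_001166186.1), out of 49705 transcripts, 15836 of which had a symbol. The pair was picked with their values under the 2 diets already known, so those values are given as a description without a test.

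The linseed group was 3 Comisana ewes after 3 weeks on a concentrate that held 20% extruded linseed on a dry matter basis. The control group was the same 3 ewes after 3 weeks on grass hay and a commercial concentrate. The ewes were at 90 days of lactation when the feeding began, and each library came from the cells of 250 ml of milk of 1 ewe. Linseed always came second, so the diet and the time between samplings cannot be told apart. The labels hold no field for diet, and the groups were read from the letter of each sample's title with the series' design text.

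TIMPs are small secreted proteins that close the active site of matrix metalloproteinases (MMPs), zinc enzymes that cut collagen and other matrix proteins. TIMP1 also binds the inactive precursor of MMP9, and TIMP2 bound to the membrane enzyme MMP14 serves to activate the precursor of MMP2. In the mouse mammary gland, the balance of TIMPs and MMPs takes part in the remodelling of the gland at weaning.

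Both inhibitors stood higher with linseed in each ewe. TIMP1 had 471.8, 562.0 and 360.2 RPKM (reads per kilobase of transcript, scaled to the library total) in linseed sheep 1, 2 and 3, against 17.7, 133.8 and 107.1 RPKM in control sheep 1, 2 and 3. The groups did not overlap, and the lowest linseed library held 2.69 times the level of the highest control library. TIMP2 had 635.1, 874.0 and 1095 RPKM in linseed sheep 1, 2 and 3, against 42.6, 197.3 and 110.7 RPKM in control sheep 1, 2 and 3. Here too the groups did not overlap, and the lowest linseed library held 3.22 times the highest control library. Of all 15891 tested transcripts, 13.3% had every linseed library above every control library, and 7.83% every one below. In all 3 sheep alike, 23.0% were higher with linseed.

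**Figure D1:**
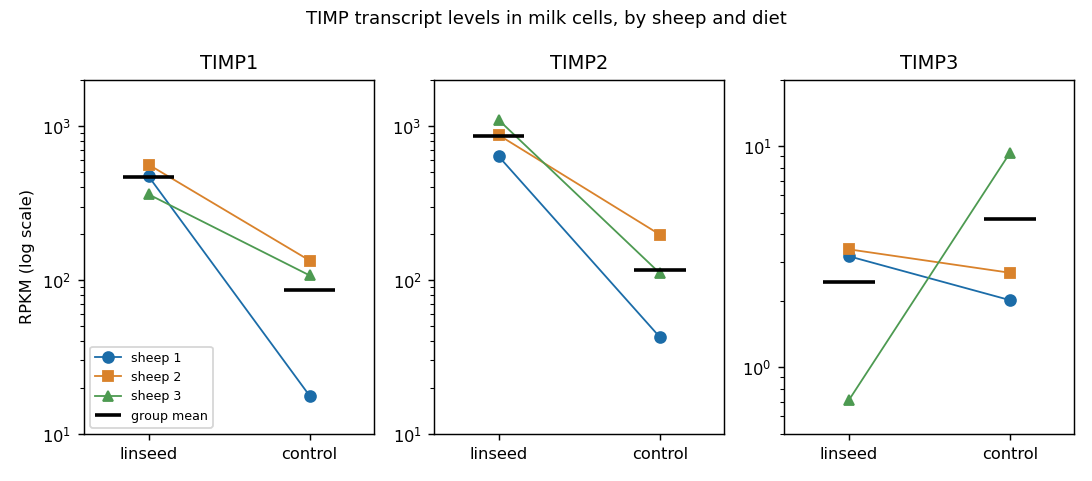
RPKM of TIMP1, TIMP2 and TIMP3 on log axes (TIMP3 on its own range), with each ewe's linseed library on the left joined to its control library on the right and group means as black bars. TIMP1 and TIMP2 lie at 360.2 RPKM or more with linseed and at 197.3 or less in controls, whereas TIMP3 stays under 10 RPKM and its groups overlap.

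In group means, TIMP1 had 464.7 ± 101.1 RPKM with linseed and 86.2 ± 60.8 RPKM in controls (SD, n = 3 each). TIMP2 had 868.1 ± 230.0 RPKM with linseed and 116.9 ± 77.6 RPKM in controls. On the log2(RPKM + 1) scale the difference of linseed minus control was 2.82 ± 0.78 (SE) for TIMP1 and 3.10 ± 0.69 for TIMP2. The median difference of all tested transcripts was -0.12. A larger difference than that of TIMP1 was held by 0.371% of them, and a larger one than that of TIMP2 by 0.227%.

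The ewes differed in how far the pair moved. TIMP1 was 26.7-fold higher with linseed in sheep 1, 4.20-fold in sheep 2 and 3.36-fold in sheep 3. TIMP2 was 14.9-fold higher in sheep 1, 4.43-fold in sheep 2 and 9.89-fold in sheep 3. Sheep 1 had the largest ratio for both genes, and its control library held the lowest level of each. Without control sheep 1 the log2 difference was 1.92 for TIMP1 and 2.51 for TIMP2. Control libraries spread over a 7.57-fold range for TIMP1 and 4.64-fold for TIMP2, against 1.56-fold and 1.72-fold among linseed libraries.

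In RPKM, which divides by the length of the RefSeq record, TIMP2 stood above TIMP1 in all 6 libraries. The ratio of TIMP2 to TIMP1 in RPKM was 1.35, 1.56 and 3.04 in linseed sheep 1, 2 and 3 and 2.41, 1.47 and 1.03 in control sheep 1, 2 and 3. These ratios overlap between diets, and the order at the low end rests on little. In control sheep 3 the 95% counting intervals (exact Poisson) were 100.6 to 113.9 RPKM for TIMP1 and 103.0 to 118.7 for TIMP2, so the 2 levels there could not be told apart. Ranked among tested transcripts, TIMP2 stood between 125 and 176 in linseed libraries and between 363 and 986 in control libraries. TIMP1 stood between 206 and 312 with linseed and between 484 and 2236 in controls.

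The reads behind these values were ample. TIMP1 rested on 2068, 2980 and 6362 reads in linseed sheep 1, 2 and 3, against 355, 1045 and 1007 reads in control sheep 1, 2 and 3, as solved from the steps of the RPKM values. TIMP2 rested on 2081, 3464 and 14458 reads with linseed and on 639, 1152 and 778 in controls. The lowest value, TIMP1 in control sheep 1, had a counting interval of 15.9 to 19.6 RPKM, which is far narrower than the spread between ewes. Intervals of this kind cover counting error only. The totals ran from 4941935 reads in linseed sheep 1 to 22644050 in control sheep 1.

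Over the whole table, limma called 0 of 15891 transcripts (0.0%) at an adjusted p under 0.05 without the sheep as a block, with 2464 at an unadjusted p under 0.05. A voom fit on the solved reads also called 0, with 2195 at an unadjusted p under 0.05. Once each ewe was entered as a block, limma passed 416 transcripts (2.62%), of which 203 were higher (1.28%) and 213 lower (1.34%) under linseed. TIMP1 and TIMP2 were both among the 203, which is the contrast they were picked on. The smallest adjusted p was 0.0401, close to the threshold, and under median-of-ratios or quantile scaling the blocked fit gave 0.

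Both RefSeq records are short, at 887 nt for TIMP1 and 663 nt for TIMP2 as solved from the RPKM values. Whether they cover the whole mRNA was not checked. Records of short length as a class were higher with linseed. The median log2 difference was 0.57 for 2202 tested transcripts under 1000 nt, 0.03 for 8031 of 1000 to 2999 nt and -0.44 for 5658 of 3000 nt and over. Within the shortest class, 1.54% of transcripts had a larger difference than TIMP1 and 1.09% a larger one than TIMP2. After a length correction, chosen after seeing the data, the difference was 2.33 for TIMP1 and 2.51 for TIMP2.

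**Figure D2:**
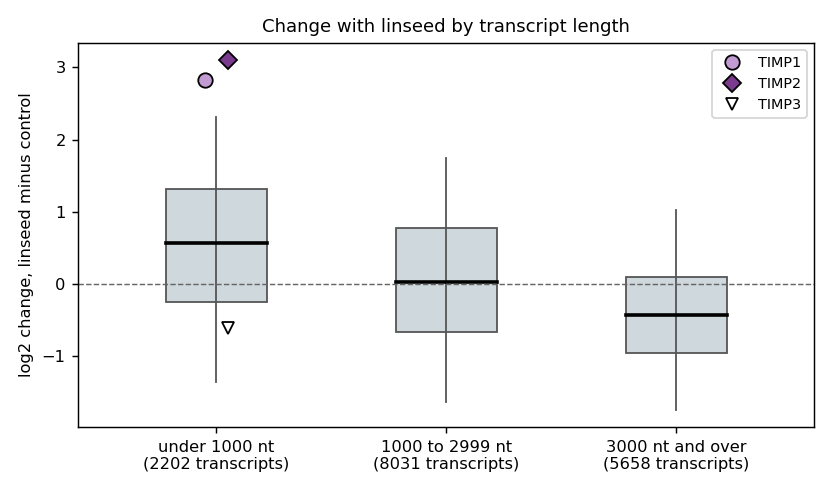
Log2 difference in RPKM + 1, linseed minus control, by transcript length class, with boxes from the 25th to the 75th percentile, lines from the 5th to the 95th and the median in black. TIMP1 (2.82) and TIMP2 (3.10) lie above the 95th percentile of the class under 1000 nt (2.32), and TIMP3 (-0.62) lies below its median of 0.57.

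TIMP3, the matrix-bound family member that also inhibits ADAM17, did not share the pattern. It had 3.18, 3.42 and 0.711 RPKM in linseed sheep 1, 2 and 3, against 2.01, 2.68 and 9.34 RPKM in control sheep 1, 2 and 3. The groups overlapped, and the ewes did not move alike: TIMP3 was slightly higher with linseed in sheep 1 and 2 and lower in sheep 3. Its log2 difference was -0.62 ± 0.67 (SE; limma adjusted p = 0.657), and 0.37 without sheep 3. TIMP3 rested on only 9 to 63 reads a library. TIMP4 is not analysed here.

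Among the enzymes that TIMPs inhibit, the MMPs did not move alike. Of 23 MMP symbols listed, 12 were matched and 7 passed the filter of a mean of at least 1 RPKM. Limma called 0 of the 7 without the block, and 0 higher and 2 lower with it. The 2 were the interstitial collagenases MMP1 and MMP13. Across the 7, 3 were higher and 2 lower with linseed in every ewe, and the median log2 difference was 0.14. For all tested transcripts, 23.0% were higher and 26.2% lower in all 3 sheep.

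MMP1 had 1.27, 1.38 and 0.389 RPKM in linseed sheep 1, 2 and 3, against 20.0, 9.95 and 2.38 RPKM in control sheep 1, 2 and 3. MMP13 had 0.286, 0.473 and 0.0709 RPKM in linseed sheep 1, 2 and 3, against 6.58, 6.66 and 1.80 in control sheep 1, 2 and 3. In both genes every linseed library lay below every control library. The log2 differences were -2.23 ± 0.72 (SE) for MMP1 and -2.11 ± 0.57 for MMP13. Their limma adjusted p was 0.263 for both without the block. Under the block it was 0.0455 for MMP1 and 0.0441 for MMP13. MMP13, of 1416 nt, rested on very few reads with linseed. At 1000 nt, 1 read is 0.202, 0.167 and 0.0502 RPKM in linseed sheep 1, 2 and 3. Across the other settings that tested them, MMP1 ran from -3.43 to -1.23 and MMP13 from -4.39 to -0.88.

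MMP14 and MMP9, named above beside TIMP2 and TIMP1, were higher with linseed, though neither passed the test. MMP14, the membrane partner of TIMP2, had 33.8, 62.9 and 104.7 RPKM in linseed sheep 1, 2 and 3, against 9.82, 41.2 and 24.2 in control sheep 1, 2 and 3. Its groups overlapped, with a log2 difference of 1.45 ± 0.71 (SE; limma adjusted p = 0.343), and 0.92 without control sheep 1. MMP9, the gelatinase of neutrophils and macrophages, had 34.5, 57.4 and 133.0 RPKM in linseed sheep 1, 2 and 3, against 1.69, 19.6 and 62.8 in control sheep 1, 2 and 3. Its log2 difference was 2.10 ± 1.03 (limma adjusted p = 0.345), and 0.85 without control sheep 1. MMP2, the gelatinase that MMP14 and TIMP2 activate, was at most 0.674 RPKM in every library.

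The remaining tested MMPs are given to complete the family. MMP19 ran from 12.3 to 60.2 RPKM with linseed and from 3.75 to 18.9 in controls (log2 difference 1.46 ± 0.76, SE, at 0.83 without linseed sheep 3 and 0.96 without control sheep 1). MMP7 ran from 0.807 to 6.17 with linseed and from 2.15 to 3.55 in controls. MMP12, the macrophage elastase, had 6.32, 40.0 and 14.6 RPKM in linseed sheep 1, 2 and 3 against 52.1, 110.3 and 7.75 in control sheep 1, 2 and 3. MMP12 was lower with linseed in sheep 1 and 2 and higher in sheep 3.

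**Figure D3:**
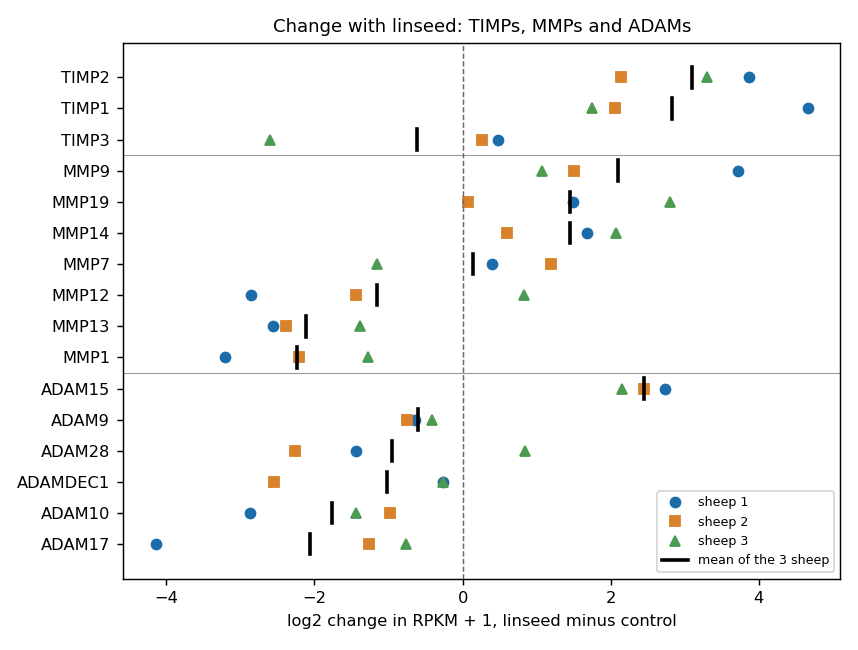
Log2 difference in RPKM + 1, linseed minus control, for every tested TIMP, MMP and ADAM gene, with a symbol for each ewe, a black bar for the mean of the 3 sheep and a dashed line at 0. TIMP1 and TIMP2 lie to the right in every ewe, MMP1 and MMP13 to the left, and ADAM15 to the right while ADAM10 and ADAM17 lie to the left.

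Set against the 12 matched MMP genes of the 23 listed, TIMP1 and TIMP2 stood higher with linseed. The summed RPKM of the 12 MMP genes was 94.0, 189.2 and 313.7 in linseed sheep 1, 2 and 3, against 97.9, 209.2 and 109.9 in control sheep 1, 2 and 3. The groups overlapped, at 199.0 ± 110.2 with linseed and 139.0 ± 61.1 in controls (SD, n = 3 each; two-sided exact permutation p = 0.7, where the smallest possible is 0.1). The permutation ignored the pairing by ewe, and the sums were not corrected for transcript length. The sum was higher with linseed in sheep 3 and lower in sheep 1 and 2, and without linseed sheep 3 the group means differed by 2.65 RPKM. TIMP1 and TIMP2 together had 11.8, 7.59 and 4.64 times that sum in linseed sheep 1, 2 and 3, against 0.615, 1.58 and 1.98 times in control sheep 1, 2 and 3. RPKM levels of RNA say nothing of the ratio of the proteins.

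**Figure D4:**
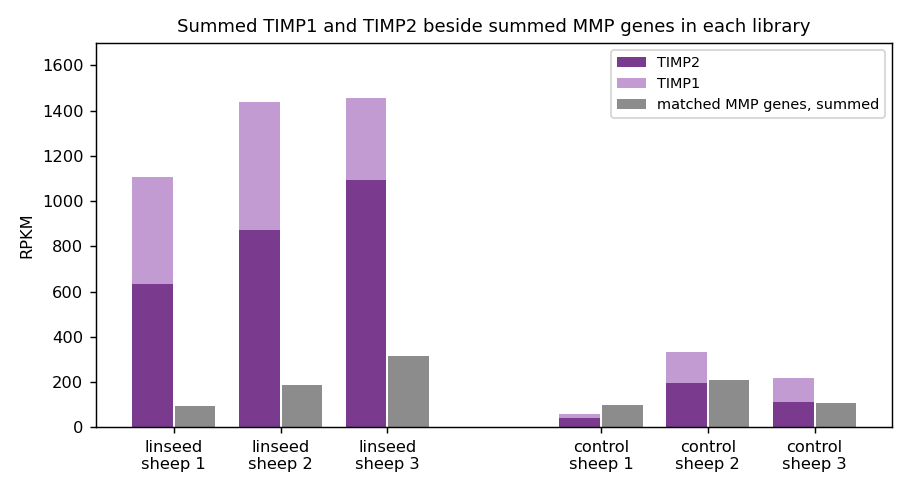
RPKM of TIMP2 and TIMP1, stacked, beside the summed RPKM of the 12 matched MMP genes in each library, linseed libraries on the left and control libraries on the right. The TIMP column reaches 1107 to 1455 RPKM with linseed and 60.2 to 331.1 in controls, while the MMP sum runs from 94.0 to 313.7 with linseed and from 97.9 to 209.2 in controls.

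Ratios within known pairs differed in their pattern. TIMP2 over MMP14 was 18.8, 13.9 and 10.5 in linseed sheep 1, 2 and 3, against 4.33, 4.79 and 4.58 in control sheep 1, 2 and 3, with no overlap. TIMP1 over MMP9 was 13.7, 9.78 and 2.71 in linseed sheep 1, 2 and 3, against 10.5, 6.82 and 1.70 in control sheep 1, 2 and 3. The TIMP1 to MMP9 ratio followed the ewe more than the diet: it was highest in sheep 1 and lowest in sheep 3 under both diets, and 1.30 to 1.59 times higher with linseed within a ewe.

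Of the ADAM proteases, membrane enzymes that shed proteins from the cell surface, 6 of 7 matched genes were tested. Limma called 0 without the block, and 1 higher and 0 lower with it. ADAM15, a membrane ADAM with a protease and an integrin-binding part, had 24.3, 38.6 and 25.8 RPKM in linseed sheep 1, 2 and 3, against 2.79, 6.27 and 5.02 in control sheep 1, 2 and 3. Its groups did not overlap (log2 difference 2.45 ± 0.58, SE), and the limma adjusted p was 0.0441 under the block, against 0.263 in the fit that left it out. ADAM10, a sheddase that TIMP1 inhibits, had -1.76 ± 0.95 (limma adjusted p = 0.380) and was lower with linseed in 3 of 3 sheep. ADAM17, which releases TNF and is inhibited by TIMP3, had -2.06 ± 0.83 (limma adjusted p = 0.292), also lower in 3 of 3 sheep. With 1 library left out, ADAM10 ran from -2.69 without linseed sheep 3 to -0.86 without linseed sheep 1 and -1.0 without control sheep 3, and ADAM17 was -1.15 without linseed sheep 1. Both transcripts are of 3000 nt and over, and after the length correction the differences were -1.36 for ADAM10 and -1.70 for ADAM17. ADAMDEC1 was at most 4.84 RPKM. Over the 6 genes, 1 was higher and 4 lower in every ewe, against 23.0% and 26.2% of all tested transcripts, and the median log2 difference was -0.99.

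The ADAMTS proteases, secreted enzymes that cut proteoglycans, were scarce. Of 10 matched genes only 2 were tested, with 0 called with or without the block. ADAMTS1 had 7.54, 10.7 and 0.420 RPKM in linseed sheep 1, 2 and 3, against 0, 1.43 and 1.65 in control sheep 1, 2 and 3. ADAMTS4 had 2.76, 9.12 and 0.668 RPKM with linseed against 0.0587, 1.13 and 1.03 in controls. In both, sheep 1 and 2 stood higher with linseed and sheep 3 lower.

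Genes of matrix proteins that MMPs cut were mostly low. Of 11 matched substrate genes 3 were tested, with 0 called with or without the block and a median log2 difference of 0.11. LAMC1, a laminin chain, ran from 1.59 to 2.35 RPKM with linseed and from 1.22 to 2.08 in controls, and VCAN (versican) from 0.153 to 3.29 with linseed and from 0.0734 to 6.01 in controls. SPARC, a collagen-binding protein, had 12.04, 1.63 and 0.357 RPKM in linseed sheep 1, 2 and 3, against 0.0392, 0.403 and 0.335 in control sheep 1, 2 and 3. Its log2 difference of 1.53 ± 0.74 (SE) was 0.60 without linseed sheep 1.

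Other secreted inhibitors included genes that stood higher with linseed beside the TIMPs. Of 11 matched inhibitor genes 8 were tested, and limma called 0 without the block and 2 higher and 0 lower with it. CST6 (cystatin M, a cysteine protease inhibitor) had 767.3, 1242 and 34.4 RPKM in linseed sheep 1, 2 and 3, against 94.3, 110.6 and 9.90 in control sheep 1, 2 and 3. WFDC2, a secreted whey acidic protein family member, had 331.8, 363.9 and 12.5 RPKM in linseed sheep 1, 2 and 3, against 27.4, 48.0 and 3.10 in control sheep 1, 2 and 3. In both genes the groups overlapped, because sheep 3 was low under either diet, unlike TIMP1 and TIMP2. CST6 and WFDC2 had log2 differences of 2.73 ± 1.28 and 2.72 ± 1.27 (SE) and each a limma adjusted p of 0.0441 under the block (0.333 and 0.331 without it). Without linseed sheep 3 the differences were 4.33 for CST6 and 4.29 for WFDC2, and without control sheep 3 they were 1.65 and 1.66. CST6 was 1.76 without linseed sheep 2. CST3 (cystatin C) had 1.97 ± 0.87 (limma adjusted p = 0.313) and was higher in 3 of 3 sheep, at 1.15 without control sheep 1 and 2.96 without control sheep 2. These 3 transcripts are also under 1000 nt, and after the length correction CST6 had 2.12, WFDC2 2.08 and CST3 1.4. SPINT1, an inhibitor of membrane serine proteases, ran from 4.28 to 17.3 RPKM with linseed and from 3.96 to 51.4 in controls. RECK, a membrane-anchored MMP inhibitor, was at or near 0 in every library.

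The plasminogen system, which activates MMP precursors, had 7 tested genes and 0 calls with or without the block. Its median log2 difference was -0.57, and in every ewe 0 were higher and 2 lower, a share near the 26.2% of all tested transcripts. PLAU (urokinase) had 10.4, 28.0 and 89.8 RPKM in linseed sheep 1, 2 and 3, against 64.7, 56.9 and 169.2 in control sheep 1, 2 and 3. S100A10, a plasminogen receptor subunit, was the most abundant of the list, at 365.3 to 657.5 RPKM with linseed and 237.5 to 696.1 in controls. PLAT (tissue plasminogen activator) was at most 2.80 RPKM and SERPINB2, a urokinase inhibitor, at most 8.29.

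Of 6 matched proprotein convertases and cathepsins, listed as enzymes that may process MMP precursors, 5 were tested, with 0 called without the block and 1 higher and 0 lower with it. CTSZ (cathepsin Z, a lysosomal carboxypeptidase) had 3109, 3258 and 3583 RPKM in linseed sheep 1, 2 and 3, against 136.7, 737.5 and 614.9 in control sheep 1, 2 and 3. Its groups did not overlap (log2 difference 3.06 ± 0.72, SE), and the limma adjusted p was 0.0441 under the block, against 0.263 in the fit that left it out. CTSB (cathepsin B) had 1486, 3587 and 5541 RPKM in linseed sheep 1, 2 and 3, against 604.4, 2175 and 944.9 in control sheep 1, 2 and 3. FURIN, which cleaves the propeptide of MMP14, ran from 7.03 to 29.6 RPKM with linseed and from 12.5 to 39.5 in controls. CTSK (cathepsin K) ran from 7.21 to 15.5 with linseed and from 6.93 to 62.0 in controls.

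Among binding partners, 4 genes were tested with 0 called with or without the block. BSG (basigin, an inducer of MMPs) had 204.2, 232.8 and 200.2 RPKM in linseed sheep 1, 2 and 3, against 72.9, 116.4 and 91.0 in control sheep 1, 2 and 3. The BSG groups did not overlap, with a log2 difference of 1.20 ± 0.57 (SE; limma adjusted p = 0.336). ITGB1, a subunit of the integrin that TIMP2 binds on human endothelial cells, had 0, 0.768 and 4.13 RPKM in linseed sheep 1, 2 and 3, against 8.47, 3.55 and 11.6 in control sheep 1, 2 and 3. The tetraspanin CD9 ran from 41.3 to 214.9 RPKM with linseed and from 137.6 to 629.4 in controls, and CD82, another tetraspanin, from 5.20 to 39.2 with linseed and from 0.697 to 33.9 in controls.

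The transcription factors and cytokines known to act on TIMP1 went both ways. Of 12 matched genes 11 were tested, with 0 called without the block and 0 higher and 1 lower with it, and a median log2 difference of -0.45. ETS1, the lower gene, had 2.19, 3.66 and 8.81 RPKM in linseed sheep 1, 2 and 3, against 14.2, 9.17 and 189.7 in control sheep 1, 2 and 3. Its groups did not overlap, with a log2 difference of -2.55 ± 1.00 (SE) and a limma adjusted p of 0.0481 under the block, against 0.289 without. Without control sheep 3 the ETS1 difference was -1.24. TGFB1, a cytokine that raises TIMP1 in human and mouse fibroblasts, had 107.5, 136.8 and 249.8 RPKM in linseed sheep 1, 2 and 3, against 6.10, 39.6 and 113.8 in control sheep 1, 2 and 3. TGFB1 was higher with linseed in 3 of 3 sheep (2.27 ± 0.92, limma adjusted p = 0.291), at 1.19 without control sheep 1. FOS, a component of AP-1, ran from 60.2 to 212.8 RPKM with linseed and from 92.1 to 529.4 in controls. STAT3 had -0.98 ± 0.64, and -0.56 without control sheep 3. TNF had 1.53 ± 0.95, with 0.31 without control sheep 1 and 2.47 without control sheep 3, and was lower with linseed in sheep 3.

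The genes whose levels followed TIMP1 and TIMP2 most closely were found by the root mean square difference between profiles of log2(RPKM + 1), each centred on its own mean over the 6 libraries. The search took the 2495 other genes with a symbol and a mean of at least 10 RPKM. For TIMP1 the nearest were PSMB10 (0.26), an immunoproteasome subunit, GPX1 (0.29), a glutathione peroxidase, CTSZ (0.30), the unnamed locus LOC101106452 (0.32) and the mitochondrial carrier gene UCP2 (0.33). For TIMP2 they were LRRC25 (0.26), CTSZ (0.29), LOC101106452 (0.34), CDC42EP2 (0.34), an effector of the GTPase CDC42, and TSPO (0.35), a protein of the outer mitochondrial membrane. Each value is in log2 units over 6 libraries. All of these genes but PSMB10 passed only with the block, at limma adjusted p of 0.0401 to 0.0481, against 0.263 without. They were picked by likeness to TIMP1 and TIMP2, so their passing is no further support. TIMP2 ranked 18 in the list of TIMP1 and TIMP1 ranked 20 in that of TIMP2, at a difference of 0.52, and their within-ewe differences lay furthest apart in sheep 3.

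**Figure D5:**
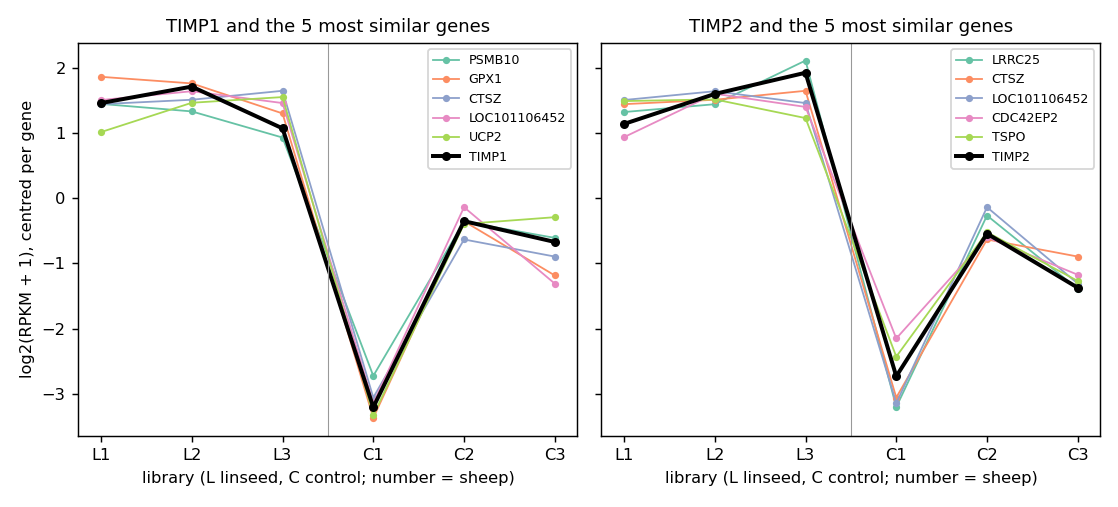
Log2(RPKM + 1) in the 6 libraries, centred on each gene's mean, for TIMP1 with its 5 nearest genes and for TIMP2 with its 5 nearest. All lines are lowest in control sheep 1 and lie above their own mean in the 3 linseed libraries.

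The levels of cell type markers also differed between libraries. In bulk RNA more cells of a type and more RNA per cell cannot be told apart. Of 16 macrophage markers 11 were measured, and their sum was 2266 to 7430 RPKM with linseed and 714.0 to 3288 in controls, with CTSB the most abundant in every library. Of the 10 tested, 4 were higher and 3 lower with linseed in every ewe, and the median log2 difference was -0.14. The 4 higher were TREM2 (log2 difference 3.73 ± 0.83, SE), C1QA (2.98 ± 0.95), CD68 (1.55 ± 0.75) and CTSB (1.52 ± 0.72). Limma called 0 of the 10 without the block, and 1 higher and 0 lower with it. The gene called was TREM2, at a limma adjusted p of 0.0401 under the block, against 0.263 without. The 3 lower were MRC1, ITGAX and ITGAM, and LYZ was lower in sheep 1 and 2. CD68 had 367.6, 601.0 and 923.2 RPKM in linseed sheep 1, 2 and 3, against 70.4, 375.7 and 304.6 in control sheep 1, 2 and 3. Of 11 neutrophil markers 6 were measured, and their sum was 2229 to 3421 RPKM with linseed and 851.0 to 1567 in controls. S100A9 and S100A8 led it except in control sheep 1, where LTF, which epithelium also makes, had 1146 RPKM. Of 10 mammary epithelial markers 6 were measured. Their sum, mostly the milk protein genes CSN2 and LALBA, was 28760, 42880 and 2712 RPKM in linseed sheep 1, 2 and 3. In control sheep 1, 2 and 3 it was 123500, 79940 and 8865, higher in each ewe. Of the 6, 4 were lower with linseed in every ewe (median log2 difference -1.37). KRT8 (1.76) and LALBA (0.39) were higher in sheep 1 and 2 and lower in sheep 3. Reads outside milk protein genes were a share of 0.519 in control sheep 1, against 0.640 to 0.987 elsewhere.

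Markers of other cell types had lower sums. The 6 measured T and NK cell markers, led on average by CD3E and PRF1, summed to 65.0 to 150.8 RPKM with linseed and 8.48 to 623.3 in controls. The 5 B cell markers, led by CD79A and CD79B, summed to 5.61 to 17.6 with linseed and 0.501 to 8.19 in controls. The 3 endothelial markers summed to 4.58 to 84.1 with linseed and 5.03 to 33.5 in controls, led by PECAM1, which leukocytes also carry, and then KDR. KRT14 and ACTA2 led the 4 myoepithelial markers, at 6.38 to 72.9 RPKM with linseed and 6.63 to 16.7 in controls. Of 8 fibroblast markers 6 were measured, and they summed to at most 0.439 RPKM in any library. COL1A2 and FAP led them, and COL3A1 and DCN were at 0 in all 6 libraries. Which cells held the TIMP1 and TIMP2 RNA was not tested.

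Divided by CD68, TIMP2 was 1.73, 1.45 and 1.19 in linseed sheep 1, 2 and 3, against 0.604, 0.525 and 0.363 in control sheep 1, 2 and 3, still without overlap. TIMP1 over CD68 was 1.28, 0.935 and 0.390 in linseed sheep 1, 2 and 3, against 0.251, 0.356 and 0.352 in control sheep 1, 2 and 3, so in sheep 3 it was only 1.11 times higher with linseed. Divided by TREM2, a lipid receptor of macrophages, TIMP2 was 2.09 to 3.95 with linseed and 2.38 to 8.19 in controls. TIMP1 over TREM2 was 1.3 to 2.18 with linseed and 1.61 to 7.92 in controls. Both ratios were lower with linseed in sheep 1 and 3 and higher in sheep 2. Divided by S100A9, TIMP2 was 0.355 to 1.17 with linseed and 0.191 to 0.657 in controls, and TIMP1 was 0.264 to 0.406 with linseed and 0.0795 to 0.445 in controls. The part of cell mixture in the levels of TIMP1 and TIMP2 was not tested further.

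In the RefSeq gene table the TIMP1 locus overlaps SYN1, ARAF and ZNF81, and that of TIMP2 holds CEP295NL and the long noncoding LOC121820647. The strand setting of the count is not given in the sources used here. SYN1 was at most 2.02 RPKM and ARAF at most 11.7 RPKM. Whether reads of overlapping genes entered the TIMP1 or TIMP2 values was not tested. ZNF81, CEP295NL and LOC121820647 are not analysed here.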

How the data were processed

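RNA-seq libraries came from milk somatic cells of 3 ewes under 2 diets (TruSeq RNA kit, HiSeq2000). The authors deposited 1 table of RPKM values per RefSeq transcript, a number scaled to length and library total. Per the submitters' processing notes, Trimmomatic 0.33 served for trimming. Which aligner, counter and build they used is not given in the sources used here.

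Gene names were looked up by accession without version in RefSeq's list for ARS-UI_Ramb_v3.0, used for names and neighbours alone: 15836 of 49705 transcripts (31.9%) matched. A gene entered by its most abundant transcript. Low RPKM values are whole multiples of the value of 1 read, from which totals, lengths and reads were solved (tolerance 0.002 reads). The solved reads filled 99.43% to 99.82% of each total. The solver and the fit were tested on simulated data.

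Those averaging at least 1 RPKM were fitted as log2(RPKM + 1) with limma 3.58.1 in R 4.3.3 (mean-variance trend, Benjamini-Hochberg over all 15891). A log2 difference on this scale understates low genes. The fit had no block. The same animal identifier stands under the same number in both groups, and the sheep pair the libraries on that ground. Deviations from group means correlated at 0.18, 0.25 and 0.40 within a ewe. Between different ewes they correlated at -0.40 to 0.24, so the correlations alone do not settle the pairing. A blocked value stands wherever it alters the call of a named gene other than TIMP1 and TIMP2. SEs are those of the fit without the block, so an SE printed beside a blocked p does not belong to it. For CST6 the SE was 1.28 without the block and 0.61 with it. Without the block p-values measure the spread between 3 ewes within a diet. With it they measure the spread of the 3 differences within a ewe.

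The members, gene lists and ratios were chosen with earlier results of these data known. Genes named were the members, TIMP3, and in each list the 4 of smallest p, the 2 most abundant and any that passed, with the 5 nearest profiles and the 2 leading markers of each cell type. MMP2, MMP7, MMP12, MMP19, RECK, LTF, MRC1, ITGAX, ITGAM, LYZ, C1QA, KRT8 and the marker genes used in ratios were added after their values were seen. A gene that this rule names is not reported here. No sequence of either gene is shown. Settings tried were other pseudocounts, filters and scalings, the block, each library or ewe left out, and, chosen after seeing the data, a length correction (lowess on log10 length per library) and voom on the solved reads.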

Additional observations from a re-analysis of the deposited data

How the results depend on the processing

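TIMP1 and TIMP2 stayed higher with linseed under all 26 other settings, at log2 differences of 1.90 to 3.36 and 2.51 to 3.60. Leaving out each library in turn gave 1.92 to 3.35 for TIMP1 and 2.51 to 3.60 for TIMP2, lowest without control sheep 1. Quantile normalization gave 2.25 and 2.54.

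The calls rest on the pairing. With the sheep as a replicate block limma called 203 transcripts higher and 213 lower, and 4 genes of the 9 pathway lists higher and 3 lower, against 0 for each without it. Leaving milk protein genes out of each total, the blocked fit called 36 higher and 116 lower but 0 genes of the pathway lists in either direction, with adjusted p of 0.0506 for MMP13 to 0.0552 for CST6 among the 7 called before. All other settings gave 0, among them the blocked fits with median-of-ratios scaling, quantile normalization, a pseudocount of 0.1, a mean of at least 5 RPKM, the length correction or voom on the solved reads. The cause was not tested.

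Of 33 other genes whose log2 difference was followed, 32 kept their direction in every setting that tested them. Most were named for a small p in this contrast or a profile near TIMP1 or TIMP2. The settings also reuse the same 6 libraries, so the kept direction is no independent support. Genes not followed include MMP7 (log2 difference 0.14), S100A10 (0.25) and LAMC1 (0.11), in which the ewes did not move alike. TIMP3 ran from -1.17 to 0.37 with 1 library or ewe left out, and turned to 0.37 without sheep 3. The difference in summed MMP RPKM ran from 2.65 to 112.5 with 1 library left out and was -11.89 without sheep 3. The blocked fit has 2 residual degrees of freedom, and depth spanned a 4.58-fold range.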
